A study of Macaca mulatta with 11 samples.

Results

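CpG island shores are the sparse CpG positions that flank a cluster of densely spaced ones. Here a position was taken as a shore position when fewer than 20 listed positions, itself included, lay within 250 bp on either side of it and its nearest position of density 40 or more lay 250 to 2000 bp away on the same chromosome. Of 3115109 listed positions, 224117 met this rule (7.19%). They were split by the methylation level of that nearest dense position, pooled over all animals: 194323 (86.7%) lay beside one under 20%, called a low island here, 12540 (5.60%) beside one over 80%, called a high island, and 17254 (7.70%) beside one in between. Level did not choose the members, but it did choose the kind of island. Density counts only the positions captured and listed in the tables, so an island here is a dense stretch of those positions, not an entry of a CpG island annotation.

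DNA came from area 46, in the prefrontal cortex of 11 rhesus macaques (Macaca mulatta): 2 of cohort 10 (ages 5.02 and 5.08) and 9 of cohort 14 (ages 5.18 to 5.44), with no unit given for age. None of the animals had drunk alcohol when the tissue was taken, and each label carries an ethanol value for the following 6 months, here the intake value, which ran from 1.69 to 4.31 without a stated unit. Bisulfite libraries were enriched with probes designed on the human genome, so the shores are those that such probes caught in macaque DNA. Each animal gave 1 library of bulk tissue, in which a different mix of cells and a different level per cell cannot be told apart. Libraries held 479979855 to 934657900 read counts, and the median shore position had 133 to 282 reads per animal, with at least 12 at every position.

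In mammals most CpGs are methylated, and CpG islands are the exception: they often hold promoters and mostly stay unmethylated. Methylation is added by the DNMT enzymes and removed through the TET enzymes, and a shore is the stretch over which a free island gives way to methylated DNA. Shores are known for differing between tissues more often than the islands themselves. No genome of the files' build was used here, so genes, promoters and sequences of these shores are not given.

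Shores of low islands rose steeply with distance. Their mean level was 18.4% ± 0.32 (SD over animals, n = 11) at 250 to 500 bp, over 47096 positions, and the lowest, median and highest animals were at 17.9%, 18.3% and 19.2%. In the last step, which ends at 2000 bp, it was 55.3% ± 0.28 (SD, n = 11) over 11548 positions, with the animals at 54.8%, 55.3% and 55.7%. The animals of the first step lay far below those of the last, with no overlap. In between the levels were 28.6% ± 0.36, 38.4% ± 0.35, 45.2% ± 0.36, 50.3% ± 0.31 and 53.3% ± 0.19 (SD, n = 11) at steps beginning 500, 750, 1000, 1250 and 1500 bp away. The level thus first exceeded 50% in the step from 1250 to 1500 bp. That step depended on which positions were kept: with member densities under 10 the level was 51.2% already at 750 to 1000 bp, and with at least 50 reads in every animal it was 44.6% in the last step.

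The rise over the whole shore was 36.8 points ± 0.30 (SD, n = 11), from 36.2 in cohort 14 animal 6 to 37.4 in cohort 14 animal 3, and 11 of 11 animals showed it (two-sided sign-flip permutation test over animals, p = 0.000977). That p-value is the smallest that the 2048 sign patterns can give. Each step also exceeded the one before it in 11 of 11 animals. The gains shrank with distance, from 10.2 and 9.74 points over the first 2 boundaries to 6.77, 5.16, 3.003 and 1.94 over the later ones (sign-flip permutation tests, adjusted p = 0.00107 for each over 12 step comparisons). Positions are not replicates and other positions enter each step, so these p-values speak of the spread between animals only. Low islands were set by a low level of the nearest dense position in the same libraries. A rise outwards was thus favoured in advance, and the p-values add no support for it. The first-step level depended on which members were kept: with densities under 10 alone it was 28.4%.

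**Figure D1:**
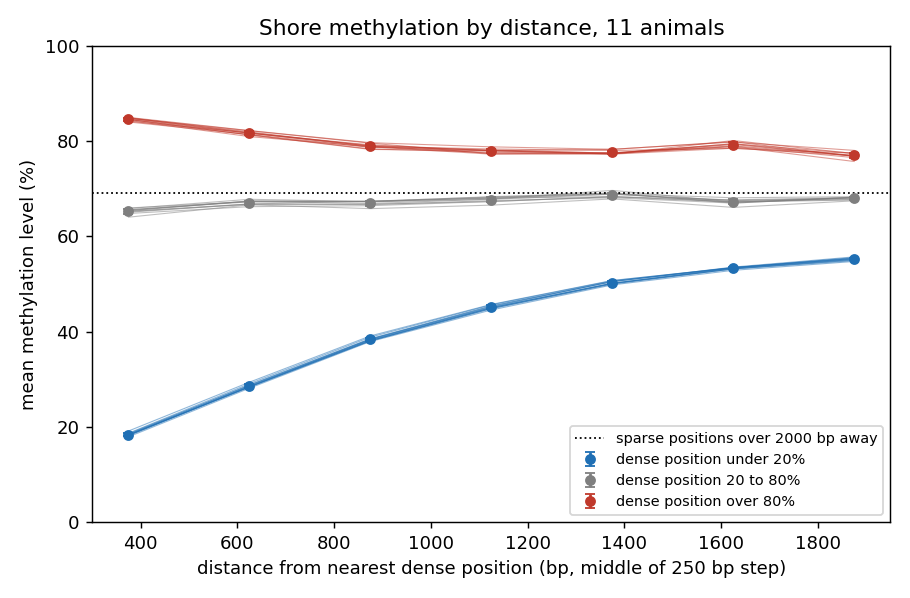
Mean methylation level of shore positions (y axis, percent) against distance from the nearest dense position (x axis, bp, middle of each 250 bp step) for the 3 kinds of island. Points are means of 11 animals with SD bars, mostly smaller than the points, thin lines are single animals, and the dotted line marks sparse positions over 2000 bp away at 69.1%. Shores of low islands climb from 18.4% to 55.3%, while those of high islands drop from 84.6% to 77.0%.

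Shores of high islands ran the other way and far less steeply. Their level was 84.6% ± 0.31 (SD, n = 11) at 250 to 500 bp, where the lowest, median and highest animals were at 84.0%, 84.6% and 85.0%. In the last step it was 77.0% ± 0.60 (SD, n = 11), with 75.7%, 77.0% and 78.1%. Again the animals of the 2 steps did not overlap. The steps between them held 81.7%, 79.0%, 77.9%, 77.6% and 79.3%, so most of the decline lay in the steps up to 1000 bp and the outer steps were uneven.

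From the first to the last step these shores fell by 7.59 points ± 0.51 (SD, n = 11) in 11 of 11 animals (two-sided sign-flip permutation test, p = 0.000977). The differences between neighbouring steps were -2.95, -2.71 and -1.03 points, each lower in 11 of 11 animals, then -0.289 points with 3 of 11 animals higher (sign-flip permutation test, adjusted p = 0.0254). The step that begins at 1500 bp was 1.63 points higher in 11 of 11 animals and the last one 2.24 points lower. Only 1387 to 2505 positions stood behind each of these steps. High islands were set by a high level of the nearest dense position in the same libraries. A fall outwards was thus favoured in advance, and the p-values add no support for it. The fall was -13.9 points over the 17 high-island shores that have members in all 7 steps and -12.0 points with dense positions of density 50 or more, and it was smallest, -5.67 points, with dense positions of density 30 or more.

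Near the island the 2 kinds of shore were widely apart. At 250 to 500 bp, high-island shores stood 66.2 points ± 0.45 (SD, n = 11) above low-island shores, in 11 of 11 animals (sign-flip permutation test, p = 0.000977). The kinds were set by the level of the nearest dense position in the same libraries. A gap of this sign was thus favoured in advance, and the p-value adds no support. In the last step the means were 77.0% and 55.3%, so the shores had drawn closer without meeting. Beside dense positions of intermediate level, the profile was nearly flat: 65.3% ± 0.53 at the first step, 68.7% ± 0.53 at 1250 to 1500 bp and 68.0% ± 0.28 at the last (SD, n = 11).

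The limits of the rule cut through continuous profiles. Over all kinds of island, sparse positions in the last 50 bp before the inner limit of 250 bp had a mean level of 23.5% (6790 positions), and those in the first 50 bp inside it 23.3% (7349). In the last 50 bp up to the outer limit of 2000 bp the level was 58.4% (2790 positions), against 59.8% (2734) in the 50 bp beyond it. At the limit of density, positions of density 19 had 23.5% (14512 positions) and those of density 20 had 22.6% (14698).

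The mean of a low-island shore concealed a shift between 3 classes of position. At 250 to 500 bp, 71.6% of positions had a pooled level under 20%, 24.4% lay from 20% to 80% and 3.996% over 80%. In the last step the shares were 23.1%, 43.1% and 33.8%. The share under 20% dropped at every step while both other classes gained, apart from a small dip of the middle class from 42.8% to 42.5% at 1500 bp. Median pooled levels were lower than the means near the island (5.71% at the first step) and higher far from it (62.7% at the last). The typical position beside a low island was thus close to unmethylated at 250 to 500 bp, with a minority of higher ones lifting the mean.

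Beside high islands, positions over 80% made up 77.0% of the first step and 61.4% of the last, and positions under 20% only 0.918% and 4.10%. The loss went mainly to the middle class, which grew from 22.0% to 34.5%.

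**Figure D2:**
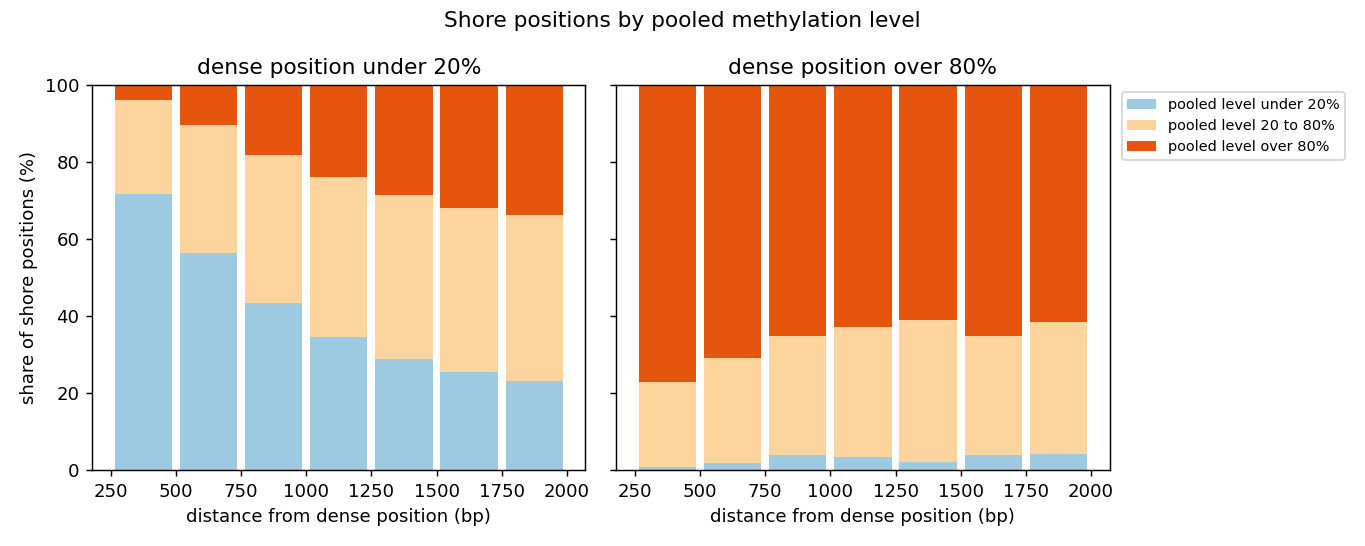
Shares of shore positions (y axis, percent) with a pooled level under 20%, from 20% to 80% and over 80%, by distance from the nearest dense position (x axis, bp), beside low islands on the left and high islands on the right. Beside low islands the class under 20% shrinks from 71.6% to 23.1% and the class over 80% grows from 3.996% to 33.8%.

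Beside low islands sparser positions were more methylated at every distance, and members became sparser outwards, with a median density of 15 at the first step of low islands and 8 at the last. From the first to the last step the rise was present within each density class, but not at every step. At density 5 to 9 the level was 60.7% in the step that begins at 1500 bp, above that of the last. At density 1 to 4 the level went from 34.0% ± 0.53 (533 positions) to 69.0% ± 0.27, at density 5 to 9 from 27.9% ± 0.36 to 59.6% ± 0.40, and at density 10 to 19 from 16.7% ± 0.32 to 44.4% ± 0.25 (SD, n = 11). Beside high islands the density classes had no constant order. They had 83.8% ± 1.38, 84.6% ± 0.80 and 84.6% ± 0.29 at 250 to 500 bp, 79.0% ± 1.45, 82.6% ± 0.75 and 81.6% ± 0.34 at 500 to 750 bp, and 83.9% ± 1.11, 80.04% ± 0.56 and 77.3% ± 0.49 at 750 to 1000 bp (SD, n = 11).

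Over all kinds of island together, shores were less methylated than other sparse DNA. Positions of density under 20 that lay over 2000 bp from any dense position, 1382782 in all, had a mean level of 69.1% ± 0.43, against 40.4% ± 0.29 (SD, n = 11) over all shore positions. Weighted to the shores' density classes, shores were lower by 26.5 points (difference -26.5 ± 0.52, SD, n = 11), and this held in 11 of 11 animals (sign-flip permutation test, p = 0.000977). The pool is mostly low-island shores. High-island shores, at 80.1% ± 0.30 over all steps, lay above the distant mean, and shores of intermediate islands, at 67.1% ± 0.42, slightly below it (SD, n = 11, not tested by density class). The outermost low-island step was under the distant level of its class: 69.0% against 76.7% at density 1 to 4, 59.6% against 72.6% at 5 to 9, and 44.4% against 62.9% at 10 to 19. The dense positions themselves had 13.4% ± 0.37 (SD, n = 11).

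The sides of the islands were much alike. Between lower and higher coordinates, low-island shores differed by 0.0583 to 3.02 points over the 7 steps, the most in the step that begins at 1500 bp (51.8% and 54.9%), and high-island shores by 0.561 to 2.29 points. The rise was seen on all 20 chromosomes. At the first step of low islands the level ran from 13.8% on chromosome 11 to 22.0% on chromosome 14, and at the last from 44.7% on chromosome 17 to 64.0% on chromosome 10. Shore positions made up 6.32% of the listed positions on chromosome 20 and 8.56% on chromosome 18, the lowest and the highest share.

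Single shores differed widely from each other. Members on 1 side of 1 island were grouped, dense positions at most 500 bp apart being joined into 11663 islands. This gave 16655 shores of low, 1580 of intermediate and 1294 of high islands. Among the 8775 low-island shores with at least 10 members, 35.3% had a mean under 20%, 58.8% from 20% to 80% and 5.82% over 80%. Among 527 such high-island shores the shares were 1.14%, 33.2% and 65.7%. At a given distance most of the variance between low-island positions lay between shores: 79.6% at the first step and 87.4% at the last, with SDs between shores of 21.3 and 31.3 points and within shores of 10.8 and 11.9 points. Beside high islands the share between shores was 55.9% at the first step and 72.3% at the last. These shares leave out a part of the positions. Beside low islands they cover 41934 positions of 8037 shores at the first step and 9045 of 1830 shores at the last.

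The distance at which methylation began varied from shore to shore. Members in all 7 steps were found in 429 low-island shores, and 320 of these (74.6%) reached 50% in some step. They did so for the first time in 53, 54, 57, 58, 51, 31 and 16 shores from the first to the last step, so the first 5 steps were reached almost equally often. By contrast, 32 shores (7.46%) stayed under 20% throughout. All 11 animals crossed in the same step in 121 of the 320 shores (37.8%), and within 1 step of each other in 230 (71.9%). In the remaining shores they lay farther apart. Of 17 high-island shores with members in all steps, 8 fell below 50% somewhere.

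The 2 shores of an island resembled each other weakly. In 3212 low islands with at least 5 members per side within 1000 bp, the levels of the 2 sides had a Pearson correlation of 0.132 across islands, given as a description, since both sides share libraries and probes. The median absolute difference was 18.6 points. Both sides were under 20% in 1020 islands (31.8%) and both over 50% in 175 (5.45%), while in 600 (18.7%) one side was under 20% and the other over 50%.

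Single shores show these forms. The 4 low-island and 4 high-island shores with the most members and a member in every step were named by rule. Coordinates are those of the deposited tables, whose build is not given in the sources used here. Shore 1, on chromosome 14 from 2227345 to 2228974, held 55 positions at 78.0% ± 2.09 (SD, n = 11), and its animals ran from 75.4% over a median of 78.1% to 82.5%. Its dense position was at 4.68%, yet the shore was already at 61.8% ± 5.94 in the first step and reached 90.2% ± 2.60 at 1250 to 1500 bp (SD, n = 11). This shore thus left the island level almost at once.

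Shore 2, on chromosome 19 from 812541 to 814127, stayed near the island level for 4 steps and then switched. Its 50 positions averaged 25.6% ± 2.30 (SD, n = 11), with a lowest, median and highest animal of 21.5%, 25.8% and 29.1%. In the first 4 steps it had 2.75%, 3.31%, 3.19% and 3.82%, the last of these from 1 position. It rose to 21.0% ± 6.05 at 1250 to 1500 bp and 62.2% ± 5.24 in the next step, then stood at 44.3% ± 6.77 in the last step (SD, n = 11). All animals made the rise, from at most 7.39% at 1000 to 1250 bp to at least 56.0% in the step that begins at 1500 bp. Pooling reads, which lets deep positions weigh more, gave 17.7% for this shore.

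Shores 3 and 4 never left the unmethylated state. Shore 3, on chromosome 19 from 40505085 to 40506671, had 49 positions at 2.58% ± 0.67 (SD, n = 11), its animals from 1.76% over a median of 2.33% to 3.94%. Shore 4, on chromosome 4 from 142310336 to 142311975, had 48 positions at 3.33% ± 0.65 (SD, n = 11), from 2.30% over 3.23% to 4.23%. No step of either exceeded 5.34% on average.

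Among the high-island shores, shore 5 on chromosome 1 from 222759133 to 222760725 was the most methylated. Its 50 positions averaged 91.3% ± 1.22 (SD, n = 11), with animals from 89.2% over 91.5% to 93.1%, and its first step of 78.0% ± 5.60 was its lowest. Its dense position, at 80.4%, was barely inside the limit for a high island. Shore 6, on chromosome 20 from 2121700 to 2123424, held 46 positions at 78.6% ± 3.76 (SD, n = 11), from 73.2% over 76.5% to 83.3%. Its last step, at 72.8% ± 11.4 (SD, n = 11), ranged from 48.4% to 86.2% between animals, more widely than its first.

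Shores 7 and 8 flank a single dense stretch of chromosome 14. Shore 7, from 19394092 to 19395499, had 42 positions at 72.6% ± 4.61 (SD, n = 11), from 65.6% over 71.3% to 82.6%, the highest value being that of cohort 14 animal 6. Shore 8, from 19391845 to 19393178, had 39 positions at 76.2% ± 2.71 (SD, n = 11), from 72.7% over 75.8% to 80.9%. Shore 8 alternated along its length, with 92.5%, 60.1%, 84.5% and 58.7% in its first 4 steps and 81.2%, 87.8% and 96.7% (1 position) in its last 3. At 500 to 750 bp its highest animal was at 65.7%, below the lowest of the next step at 77.3%, so all 11 animals shared the alternation.

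**Figure D3:**
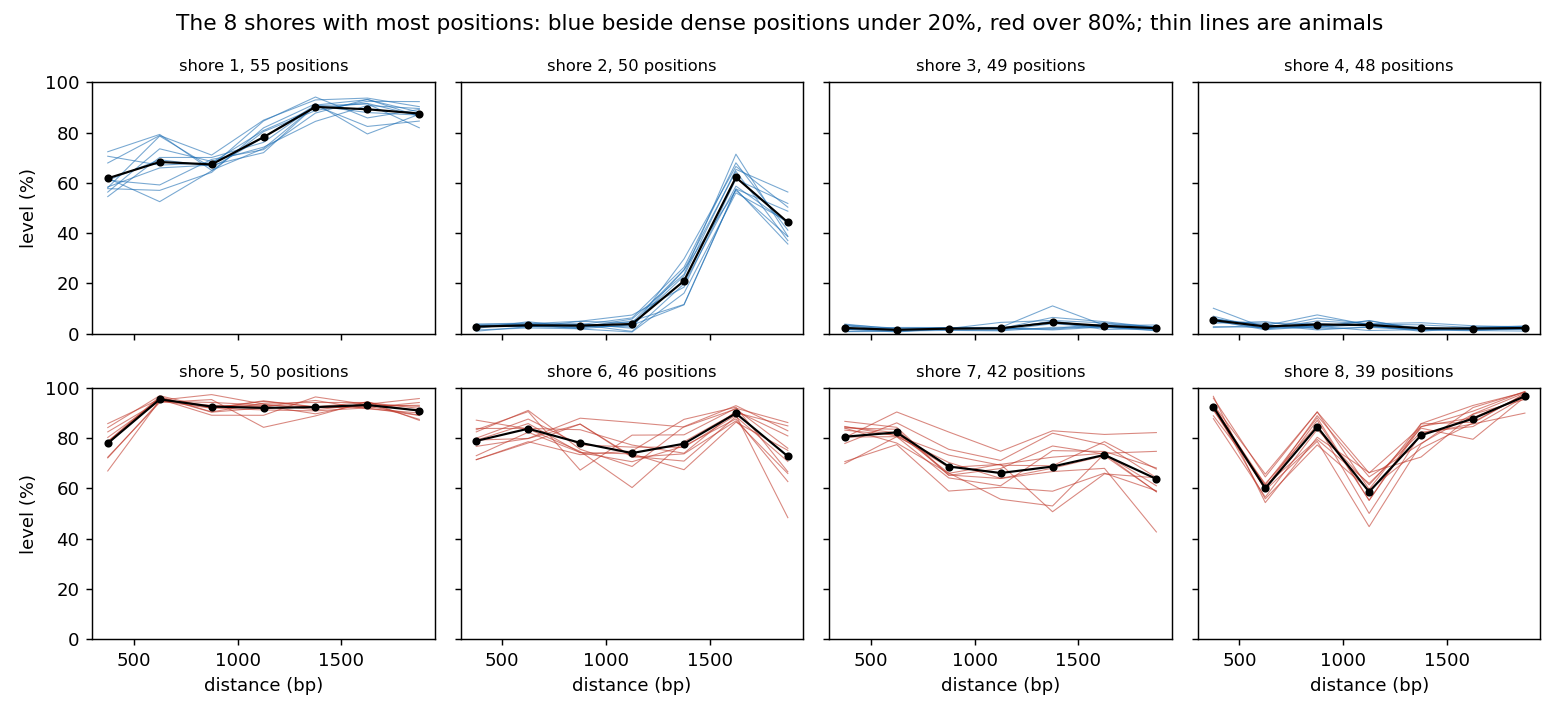
Mean level (y axis, percent) by distance from the nearest dense position (x axis, bp) in the 8 shores with the most positions, blue beside low and red beside high islands. Thin lines are the 11 animals and black points their mean. Shore 2 goes from 3.82% (1 position) in the step from 1000 bp to 62.2% in that from 1500 bp, then 44.3% in the last. Shores 3 and 4 stay near 0.

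The spread between animals grew with distance from low islands. The median SD of a position over the 11 animals was 3.95 points at 250 to 500 bp, then 5.07, 5.70, 6.03, 6.15 and 6.34, and 6.57 points in the last step. Counting error alone would give medians of 2.05 points at the first and 2.71 at the last step, at median depths of 184 and 179 reads. Beside high islands the median SD was 6.16 points at the first and 7.05 at the last step, at depths of 108 and 127.5 reads. For a test over animals, each animal's mean absolute deviation from the mean of the other 10 was used. These values share the levels of the other animals and are not independent, so the sign-flip p-values for spread are only approximate. At low islands it averaged 4.54 points at the first and 6.67 at the last step, an increase of 2.13 ± 0.30 (SD, n = 11) seen in 11 of 11 animals (two-sided sign-flip permutation test, p = 0.000977).

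The spread of a share depends on its level, so the steps were also compared among members pooled from 20% to 80%. Levels within that range were not matched between steps. Among low-island members with a pooled level from 20% to 80%, the median SD was 9.20 points at the first step, 8.96 at 750 to 1000 bp and 9.48 at the last. Their mean absolute deviation was 8.82 points in the first and 9.39 in the last step. The increase of 0.574 ± 0.285 points (SD, n = 11) was found in 11 of 11 animals (sign-flip permutation test, p = 0.000977), from 0.145 in cohort 14 animal 7 to 1.15 in cohort 14 animal 6. Its size was unstable: 0.224 points, in 8 of 11 animals (sign-flip permutation test, p = 0.0254), without positions at which 1 animal lay under 20% and another over 80%, 0.227 with dense positions of density 50 or more, 0.249 with at least 50 reads in every animal, 0.331 with member densities under 10, 0.916 with dense positions of density 30 or more, and 1.14 points with every shore weighted the same. High-island members in the same range of levels went the other way. Their mean absolute deviation was 11.9 points in the first and 11.5 in the last step, a difference that was not tested.

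Within the range from 20% to 80% the pooled shores, mostly of low islands, varied less than other sparse DNA. Levels inside that range were not matched, so a part of level in this difference was not tested. Among positions pooled from 20% to 80%, the mean absolute deviation was 9.13 points in shores and 11.1 points at sparse positions over 2000 bp away. Weighted to the shores' densities the difference was -1.74 ± 0.17 points (SD, n = 11), lower in shores in 11 of 11 animals (sign-flip permutation test, p = 0.000977). By kind of island the deviation was 8.89 points beside low, 9.93 beside intermediate and 11.5 beside high islands, the last not below the distant value. These differences by kind were not tested. Shores were also covered more deeply, with a median of 183 against 143 reads over all levels and a median counting SD of 3.46 against 3.97 points at these levels. The difference was -1.29 points with at least 50 reads in every animal. Without positions at which 1 animal lay under 20% and another over 80%, which made up 1.31% of shore and 3.17% of distant positions, it was -1.04 points, and in shores with members in all 7 steps it was -2.58.

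The same animals scattered most at every distance. At low-island members pooled from 20% to 80%, the deviation at 250 to 500 bp was 7.30 and 7.74 points in the 2 animals of cohort 10 and 7.95 to 10.9 in cohort 14. Animals 3, 6, 7 and 8 of cohort 14 had 9.71, 10.9, 9.79 and 10.1 points, above the other 7 at every step. Their median depths at shore positions were 228, 162, 180 and 174 reads, within the range of the rest of cohort 14 except for animal 6, and the cohort 10 animals, with the least scatter, had the fewest reads, 133 and 138. Without those 4 libraries the increase was 2.004 points over all members and 0.472 at levels from 20% to 80%, and the difference from distant positions was -1.71 (exact sign-flip permutation tests, p = 0.0156 each, the smallest that 7 animals can give).

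**Figure D4:**
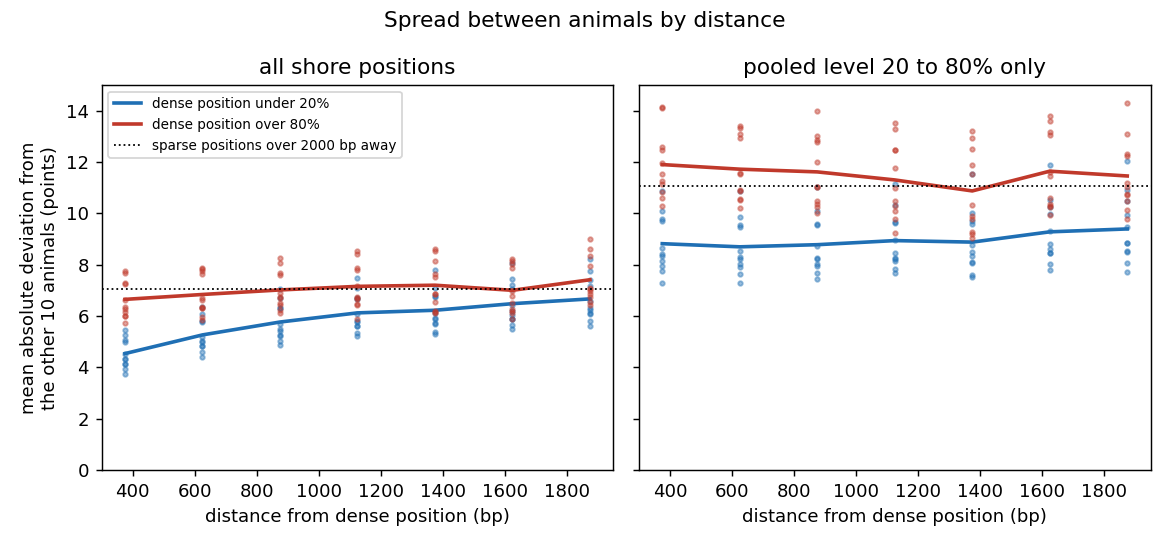
Mean absolute deviation of an animal from the mean of the other 10 (y axis, percentage points) against distance (x axis, bp, middle of each 250 bp step), for all shore positions on the left and for those pooled from 20% to 80% on the right. Points are animals, lines their means and dotted lines sparse positions over 2000 bp away; at low islands the mean rises from 4.54 to 6.67 points on the left and from 8.82 to 9.39 on the right.

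Few whole shores differed widely between animals. The median range from the lowest to the highest animal was 8.06 points in low-island, 11.1 in intermediate and 9.60 in high-island shores of at least 10 members. The range passed 20 points in 380 (4.33%), 70 (9.32%) and 31 (5.88%) of them. The 4 shores of widest range were chosen for that range, so they are described without a test. All 4 lay beside low islands, with dense positions at 1.60% to 3.87%, and each held 2 or 3 positions with an animal under 20% and another over 80%.

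Shore 9, on chromosome 7 from 372512 to 372594, had 10 positions with animals from 5.64% over a median of 32.1% to 58.0%. Its positions lay in 1 step, over 83 bp, at a median depth of 71 reads. Cohort 10 animal 2 and cohort 14 animal 9 stood apart at 5.64% and 7.36%, the next animal being at 27.6%. Shore 12, on chromosome 19 from 39246813 to 39247127, had 17 positions with animals from 7.84% over 30.1% to 56.9%. It fell into 3 sets: 4 animals from 7.84% to 9.72%, 5 from 28.1% to 40.5%, and 2 at 55.8% and 56.9%. The sets of shore 12 rested on a median depth of 383 reads, and each contained animals of cohort 14.

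Shore 10, on chromosome 6 from 176076953 to 176077235, had 11 positions with animals from 18.9% over 42.2% to 70.1%, at a median of only 33 reads. Shore 11, on chromosome 10 from 97631768 to 97631911, had 11 positions with animals from 13.8% over 40.4% to 64.9%, at a median of 49 reads. In both the animals were spread along the range, without sets as clear as in shore 12.

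The series asks whether methylation before drinking is related to later intake. No shore region passed the test. Regions are runs of listed positions at most 200 bp apart, split every 1000 bp and kept with at least 5 positions. A shore region has over 50% of its positions in shores. Of 9947 such regions, 8692 had pooled levels of 5% to 95% and entered the fit over all regions, a moderated quasi-binomial regression on intake with cohort as covariate and limma's shrinkage. With adjustment over all 119749 regions, 0 shore regions passed 0.05, against 0% of all regions. At an unadjusted p under 0.05 there were 191 (2.20% of shore regions, 109 higher and 82 lower with intake), against 2.92% of all regions, so their share was no higher. Limma on logit levels likewise called 0, with 215 unadjusted (2.47%, against 3.38% of all regions). Without cohort 14 animal 9 the unadjusted number was 417 (4.80%, against 5.36% of all regions), with 0 called, so the gain was not limited to shores.

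Single positions gave a like picture. Of 161317 shore positions tested, 0 passed the adjusted threshold, against 0% of 1874277 positions in all, and the smallest adjusted p in a shore was 0.697 (same limma-moderated fit, n = 11). At an unadjusted p under 0.05 there were 4459 (2.76%, 2575 higher and 1884 lower), against 2.96% of all positions. Limma on logit levels called 0 with 4505 unadjusted (2.79%, against 3.46% of all positions). Without cohort 14 animal 9 there were 6639 (4.12%, against 4.02% of all positions) and 0 called. A plain least-squares fit of percent levels on intake and cohort gave shore-region slopes a median standard error of 1.52 points per unit of intake. Slopes of the limma-moderated fit were above 0 in 56.4% of shore regions and in 53.9% of all tested regions.

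The shore regions with the smallest p in each direction show what such slopes looked like. None passed: the adjusted p of each rounded to 1 (limma-moderated fit, n = 11). Shore region 1, on chromosome 19 from 47457379 to 47457614, lay 598 to 833 bp from a dense position of 23.5%. Its 14 positions averaged 21.5% ± 4.46 (SD, n = 11), with animals from 14.2% over 21.7% to 28.6%. Slopes in points, here and below, come from the least-squares fit, not from the fit that gave the p-values. In this region the slope was 5.52 ± 0.81 points (SE) per unit. Animals below an intake value of 3 averaged 18.3% ± 2.95 (SD, n = 6) and the others 25.3% ± 2.34 (SD, n = 5). The classes did not overlap, with 21.7% as the highest value of the first and 22.8% as the lowest of the second. Since the region was picked for its small intake p, such a separation was favoured by the choice and is a description only.

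Shore region 2, on chromosome 7 from 117004680 to 117004978, held 6 positions 940 to 1238 bp from a dense position of 3.35%. Its animals ran from 63.0% over 72.0% to 82.3%, the highest being cohort 14 animal 9, and the slope was 6.50 ± 0.81 (SE, n = 11). Shore region 3, on chromosome 6 from 968396 to 969354, had 31 positions, 22 of them shore positions, from 40.04% over 50.1% to 57.4% and a slope of 5.82 ± 1.47 (SE, n = 11).

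Downwards, shore region 4 on chromosome 14 from 117637438 to 117638413 had 34 positions, only 18 of them shore positions. Its animals ran from 18.0% over 27.9% to 35.3%, with a slope of -4.50 ± 0.81 (SE, n = 11). Cohort 14 animal 9, with the highest intake, was the lowest there. Shore region 5, on chromosome 5 from 78237181 to 78238174, had 29 positions, only 15 of them shore positions. Its animals ran from 11.5% over 16.1% to 19.4%, with a slope of -2.82 ± 0.52 (SE, n = 11). Shore region 6, on chromosome 19 from 34050628 to 34050871, lay beside a high island (91.9%) and had 7 positions from 64.5% over 75.9% to 88.7%, with a slope of -7.52 ± 1.82 (SE, n = 11). These regions were picked for small p-values, so their slopes overstate what other animals would show.

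Mean shore levels varied little between animals and their relation to intake did not pass the test. At low islands, Pearson's r was 0.471 at 250 to 1000 bp (permutation p = 0.143, adjusted over 4 relations 0.190) and 0.575 at 1000 to 2000 bp (p = 0.0631, adjusted 0.190, permutation). At high islands it was 0.521 (permutation p = 0.100, adjusted 0.190) and 0.161 (permutation p = 0.638, adjusted 0.638). Spearman's rho was 0.391, 0.618, 0.509 and 0.0818 in the same order, with permutation p-values of 0.234, 0.0462, 0.113 and 0.819 and adjusted ones of 0.312, 0.185, 0.227 and 0.819. All tests were two-sided with n = 11, and the levels behind the first relation ran from 26.9% to 28.1%.

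The low-island relations depended on single animals. Without cohort 14 animal 9, which had the highest intake value and low-island levels of 27.2% and 49.9%, r was 0.776 and 0.800 (permutation, adjusted p = 0.0160 for both, n = 10), past the threshold, while rho was 0.697 and 0.709 (permutation, adjusted p = 0.0616 for both). Without cohort 14 animal 4, which had the lowest intake value and the lowest low-island levels, r was 0.300 and 0.379. Without both of them, whose intake lay farthest from the median, r was 0.688, 0.684, 0.565 and 0.0461 over the 4 relations (exact permutation p = 0.0366, 0.0523, 0.115 and 0.911, unadjusted, n = 9). Within cohort 14 r was 0.439, 0.563, 0.455 and 0.0681 (exact permutation, adjusted p = 0.316, 0.316, 0.316 and 0.861, n = 9). Pooled reads gave 0.441, 0.310, 0.204 and 0.0510.

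**Figure D5:**
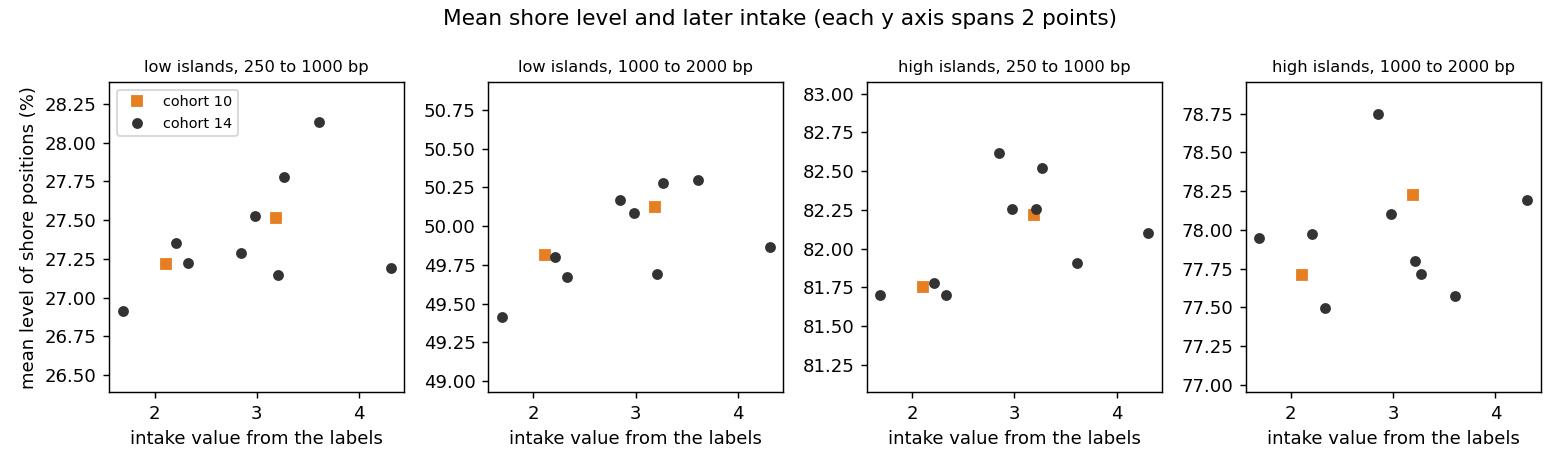
Mean level of shore positions in each animal (y axes, percent, each spanning 2 points) against the intake value of the labels (x axes, no unit given), for 2 distance ranges beside low and high islands. Squares are the 2 animals of cohort 10 and circles the 9 of cohort 14; the animal at an intake value of 4.31 has 27.2% in the first panel and 49.9%, the median of the animals, in the second.

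No difference in mean shore level between the cohorts passed the test. With 2 animals in cohort 10, the 55 assignments left little room to pass after adjustment. Cohort 10 and cohort 14 had 27.36% and 27.40% at 250 to 1000 bp and 49.97% and 49.92% at 1000 to 2000 bp from low islands. At high islands they had 81.99% and 82.09%, then 77.97% and 77.95%. The differences, cohort 10 minus cohort 14, were -0.0312, 0.0511, -0.108 and 0.0176 points (exact two-sided permutation test over 55 assignments, p = 0.909, 0.855, 0.709 and 0.927, adjusted p = 0.927 for each). The animals of cohort 10 were also the youngest, and effects of age and cohort cannot be told apart.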

How the data were processed

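The authors deposited whole-number counts of methylated and of total reads per CpG position, not normalized, per the labels and file headers. Per the labels' protocols, Qiagen AllPrep DNA was captured with SureSelect XT Human Methyl-Seq. The submitters' processing notes name FastQC and Bismark. Their versions, the build and whether positions count from 0 or 1 are not stated in what was used here. The lowest methylated and unmethylated counts are both 1, as if 1 had been added to each, which no source states. In each table, 5 further columns matched no sample and were not used.

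A level is methylated over total reads, with a coverage minimum of 10. Animals were numbered in accession order within cohorts. Steps were 250 bp. Per-animal means were tested by two-sided sign-flip permutation over animals. Regions and positions were fitted over the whole table by quasi-binomial regression with limma's shrinkage and Benjamini-Hochberg adjustment, and the fit was tested on simulated data. Named shores were the 4 low-island and 4 high-island shores with most members in all 7 steps, the 4 of widest range with at least 10 members, and the 3 shore regions of smallest intake p in each direction. Members, lists and the 4 libraries of wider scatter were chosen with earlier results of these data known. Counting errors treat reads as independent, although PCR copies are not. The labelled tissue was not checked against markers, since gene positions on the files' build were not used here. At 1255 places in the shores 2 listed positions lie 1 bp apart, and 5 members were equally far from a dense position on each side.

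Alternatives changed the density limits, the island levels, the coverage minimum (50), the added counts, the weighting, the joining of positions 1 bp apart, the animals used, the cohort term, the tested levels and the test. Tools were limma 3.58.1 under R 4.3.3, and matplotlib 3.10.9, pandas 2.3.3, scipy 1.17.1 and numpy 2.4.6 under Python 3.11.15.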

Additional observations from a re-analysis of the deposited data

Results flagged for a closer look

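Sets of 9 values in cohort 14 were searched for an animal far from the rest, 57 sets in all, many of them built from the same positions. Chance alone would give such an animal in about 1 in 20 sets, and 2 were found, both with cohort 14 animal 6. Its first-step difference between high-island and low-island shores was 65.0445 points, while the other animals of its cohort lay between 65.98 and 66.75. The difference in spread between shores and distant sparse positions at levels from 20% to 80% was -2.13248 points in it, while the others lay between -1.81 and -1.50. This animal also had the highest level in low-island shores at 250 to 500 bp, 19.2%. Beside low islands it had the widest scatter of the 11 at every step, at a median of 162 reads per shore position. Beside high islands cohort 14 animal 8 scattered more in the steps that begin at 1000 and 1250 bp.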

How the results depend on the processing

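With 1 animal left out at a time, the low-island rise was 36.8 to 36.9 points, the high-island fall -7.65 to -7.50, the first-step difference 66.1 to 66.3, the low-island spread increase 2.07 to 2.17 and 0.513 to 0.628 at levels from 20% to 80%, and the shore minus distant differences -26.6 to -26.4 in level and -1.77 to -1.69 in spread. Under the other settings run, these 7 values kept their direction and their side of 0.05. With 1 animal left out, intake correlations ran from 0.300 to 0.776 and 0.379 to 0.800 near and far from low islands, and from 0.411 to 0.644 and 0.0262 to 0.307 at high islands. Under the other settings they ran from 0.313 to 0.537, 0.310 to 0.618, 0.204 to 0.718 and -0.0846 (member densities under 10) to 0.405. Cohort differences, all near 0 and never past the test, changed sign often. With 1 animal left out they were -0.180 to 0.117 and -0.103 to 0.206 points near and far from low islands. At high islands they were -0.340 to 0.124 and -0.242 to 0.277. With only 1 animal of cohort 10 left, the exact test has too few assignments to reach 0.05. Near low islands the difference was 0.0884 without the 4 libraries of wider scatter, 0.0513 with pooled reads and 0.100 with member densities under 10, and far from them -0.00974 at a coverage minimum of 50. Near high islands it was 0.159 with pooled reads, 0.300 in shores with members in all 7 steps, 0.0436 with member densities under 10, 0.0454 with islands under 10% or over 90% and 0.0421 with the added counts removed. Far from them it was -0.468 in shores with members in all 7 steps, -0.0163 without positions ranging from under 20% to over 80%, -0.0645 and -0.334 with dense positions of density 30 and 50 or more, -0.00551 with islands under 10% or over 90%, -0.0751 at a coverage minimum of 50 and -0.00285 with positions 1 bp apart joined. The cause of these changes was not tested.

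The intake fits called 0 shore regions and 0 shore positions under each setting run. In these fits the slopes of the named regions, on the logit scale, kept their sign, with a smallest adjusted p of 0.920 (limma-moderated fit). With the cohort term, leaving out either animal of cohort 10 gives the same slopes as cohort 14 alone. The use of complete shores and the removal of positions ranging from under 20% to over 80% were chosen after seeing the data. No paired analysis was possible because animal numbers follow accession order and match nothing between cohorts. The spread was not computed from pooled reads, and the shore minus distant differences were not computed with equal shore weights or pooled reads. Cohort differences cannot be had in cohort 14 alone. At a coverage minimum of 50 only 65556 of 161317 shore positions could be tested.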
